A study of Mus musculus with 4 samples.

Results

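The genes of the cytosolic ribosome and of the translation factors were followed in ventricular RNA of mice that overexpress serum response factor (SRF) in the heart. Members were chosen by name. They were genes whose single symbol begins with Rps or Rpl (ribosomal proteins of the small and large subunit) or with Eif or Eef (initiation and elongation factors), without the Rps6k kinases, Eif2s3x and Eif2s3y. Of 8251 genes with a probe set of 1 symbol, 81 met the rule, with 112 probe sets among them, and each gene was represented by its brightest probe set over all 4 arrays. There were 34 ribosomal proteins (17 of each subunit) and 47 factors (32 initiation factors, 7 named as elongation factors, and 8 kinases and inhibitors that act on them). The rule used names and overall brightness, not the comparison, but it was set with earlier results of these data known.

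The transgenic group was ventricle of mice that moderately overexpress SRF in the heart alone, with 2 arrays. The non-transgenic group was ventricle of mice without the transgene, also with 2 arrays. The mice of both groups were 6 months of age, and each array sample was prepared from total RNA with biotin labelling. Strain, sex, the promoter of the transgene and whether each array held RNA of 1 animal are not stated in the labels. The p-values therefore reflect only the variation among these 4 arrays, which may be technical. Srf itself is not analysed here, and the overexpression was not checked.

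The ribosome reads mRNA on its small subunit and joins amino acids on its large subunit. Initiation factors bring the small subunit and the initiator tRNA to the start of the mRNA, elongation factors deliver aminoacyl-tRNA and move the ribosome along, and the kinases and binding proteins restrain these steps. Adult cardiac and skeletal muscle is known for using Eef1a2 beside or in place of Eef1a1, the form of elongation factor 1 alpha found in most other cells. SRF binds CArG boxes in the promoters of muscle, cytoskeletal and immediate early genes.

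The deposited values had the same mean without the top and bottom 2% on every array (150.1), and the groups differed in markers of several cell types. The median signal was lower on both transgenic arrays, at 49.0 and 50.6, against 53.85 and 52.3 on the non-transgenic arrays. The ratio of 3′ to 5′ signal of beta-actin, a measure of RNA integrity, was 1.20 and 1.30 on transgenic arrays, against 1.22 and 1.11 on non-transgenic arrays, and that of Gapdh was 0.917 and 0.879, against 0.954 and 0.948. Fibroblast markers were higher in 9 of 10 cases, with a summed signal of 12295 to 12746 in transgenic, against 7351 to 7494 in non-transgenic ventricle. The other, Pdgfra, was not called but was lower on both transgenic arrays (331.9 and 298.3, against 523 and 391.1). Of 9 tested macrophage markers 5 were higher, with sums of 4058 to 4111 against 2450 to 2709. Of 2 tested adipocyte markers 1, Adipoq, was lower, with sums of 190 to 256 against 434 to 490. Of 9 cardiomyocyte markers 6 were lower and 1, Nppa, higher, with sums of 57645 to 58385 against 72118 to 73096. Hepatocyte markers were lower in 7 of 8 tested cases, with sums of 209 to 251 against 2841 to 5290. No marker was listed at 0, and of the defining markers Adgre1 (macrophages), Fgb and Ambp (hepatocytes), Cidec and Retn (adipocytes) and Cd3d, Cd3e, Cd79b and Cd8a (lymphocytes) lay below the filter on dim probe sets. In whole ventricle, fewer cells of a type and less RNA per cell cannot be told apart. The part of these shifts in the results that follow was not tested.

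The ribosomal protein genes as a group differed little between transgenic and non-transgenic ventricle. Values were compared as log2(signal + 9) with limma, Benjamini-Hochberg adjustment over 7453 probe sets and a threshold of 0.05, after leaving out the dimmest 40% by mean over all arrays. That filter ignores the groups, and 63 of the 81 members passed it. Of these, 2 rose in transgenic ventricle (Eef1a1 and Rps4l), 2 fell (Rpl41 and Eif2b2) and 59 were not called. Over all tested probe sets, 4.07% were higher and 3.86% lower, or 7.93% in either direction, so the members' share of calls in each direction was near that of the array as a whole. At an unadjusted p below 0.05 there were 14 members of 63, against 24.2% of all tested probe sets.

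The median log2 change was -0.01 over the 24 tested ribosomal proteins and 0.02 over the 39 tested factors, against -0.01 over all tested probe sets. Of the ribosomal proteins, 12 had a positive change and 12 a negative one. Arrays of the 2 groups were fully separated for 13 of these 24 genes (54.2%), against 55.9% of all tested probe sets. Ribosomal protein probe sets were bright and their errors small, with a median standard error of 0.08 on the log2 scale, against 0.18 over all. The 95% interval of the change lay within 1.5-fold in either direction for 19 of the 24 ribosomal proteins (79.2%) and 24 of the 39 factors (61.5%), against 38.0% of all tested probe sets. For these members a change of 1.5-fold or more lay outside the interval. The median absolute log2 difference of ribosomal proteins was 0.11 between the groups, 0.09 between the transgenic arrays and 0.09 between the non-transgenic arrays. For all tested probe sets these were 0.23, 0.16 and 0.18.

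**Figure D1:**
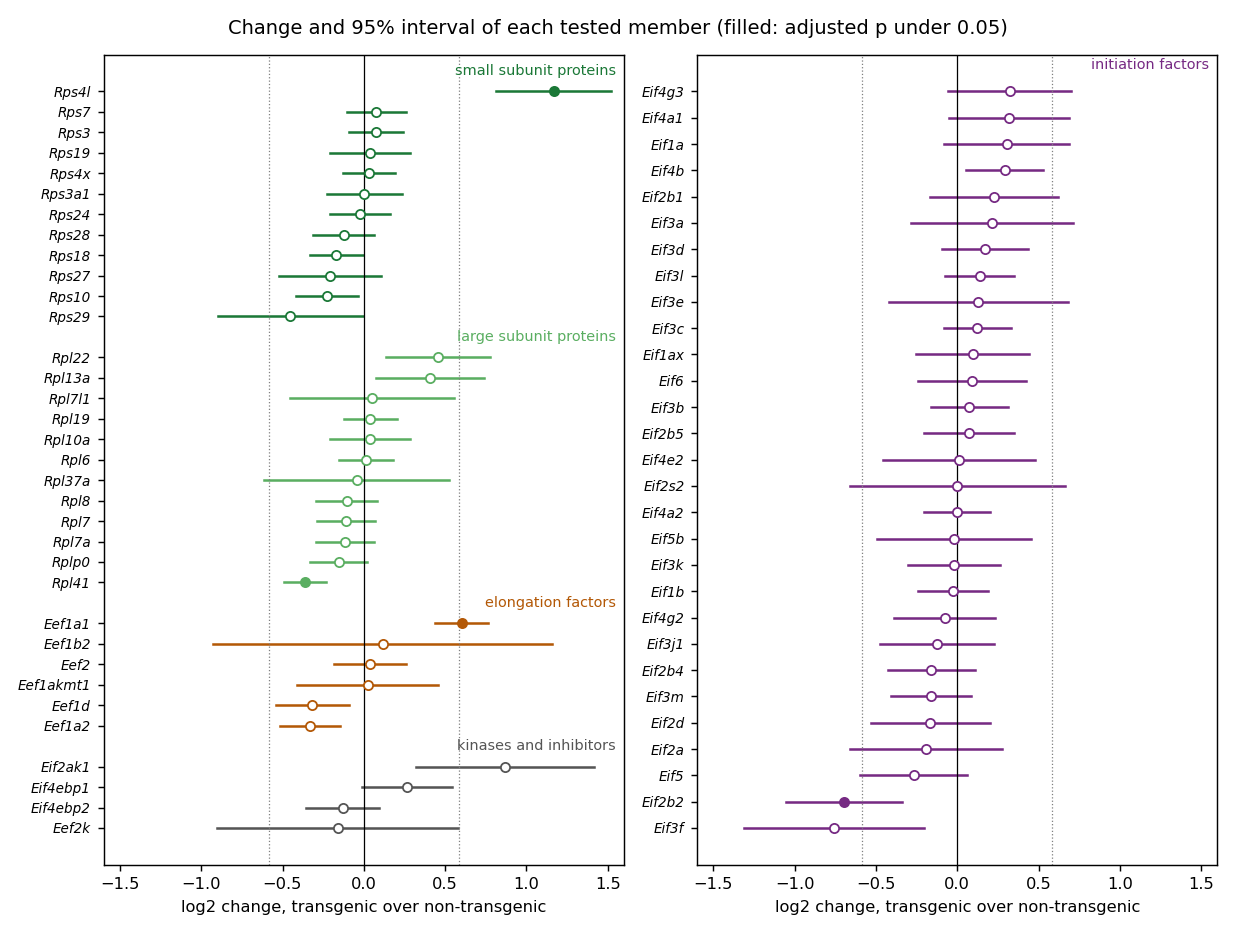
Log2 change of each tested member in transgenic over non-transgenic ventricle (horizontal axis), as a point with its 95% interval from limma, grouped by role. Filled points had an adjusted p under 0.05, and the dotted lines mark 1.5-fold either way. Rps4l and Eef1a1 stand to the right and Eif2b2 and Rpl41 to the left as filled points, while 19 of 24 ribosomal protein intervals lie between the dotted lines.

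Among the small subunit proteins, 12 of 17 were tested. Of these, 1 was called higher, 0 lower and 11 neither, beside 4.07% higher and 3.86% lower of all tested probe sets. Rps4l, a close relative of the small subunit protein Rps4x, had signals of 195.2 and 203.9 in transgenic ventricle, against 87.6 and 80.2 in non-transgenic ventricle. Both transgenic arrays were far above both non-transgenic arrays. This was a rise of 1.17 ± 0.15 (SE) on the log2 scale, or 2.25-fold, with an adjusted p of 0.00713 in limma. The ID of the probe set carries the suffix of sets that can bind several related transcripts, and a second, dim probe set for Rps4l (14.7 and 21.5 in transgenic, against 34.7 and 19.9 in non-transgenic ventricle) lay below the filter.

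Rps4x itself, a core protein of the small subunit, gave 3257.7 and 3421.8 in transgenic ventricle, against 3223.4 and 3312.9 in non-transgenic ventricle. Its groups overlapped and its log2 change was 0.03, with a 95% interval of -0.13 to 0.19. Rps3, which lies at the mRNA entry channel, had 3234.3 and 3442.9 in transgenic, against 3122.7 and 3213.8 in non-transgenic ventricle. Its transgenic arrays were both slightly higher, with an interval of -0.09 to 0.24. Rps7 (log2 change 0.08), Rps3a1 (0.00) and Rps19 (0.04), the protein mutated in many cases of human Diamond-Blackfan anaemia, were likewise near 0. Rps24 was near 0 too (-0.02), but its bright probe set lists the same source sequence as the probe set of Rpl7, so which gene it measures is uncertain.

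The lower end of the small subunit was taken by Rps29, Rps10, Rps27 and Rps18, none of which passed the test. Rps29 had 53.5 and 61 in transgenic, against 78.7 and 84.3 in non-transgenic ventricle (log2 change -0.45, adjusted p = 0.203 in limma), and its second probe set gave -1.12 (adjusted p = 0.131). Rps10 had 2223.7 and 2128.2, against 2426.7 and 2683.8 (log2 change -0.23, adjusted p = 0.141 in limma). In both genes the transgenic arrays were the lower ones without overlap, as they were for 28.1% of all tested probe sets. Rps27 had 212.9 and 241.6 against 271.5 and 255.6 (log2 change -0.21, adjusted p = 0.382 in limma), and its paralog Rps27l was below the filter. A brighter probe set listed under both Rps27 and Rps27rt, and so given to neither, went the other way, with 2553.3 and 2646.5 in transgenic, against 2328.8 and 2305.8 in non-transgenic ventricle (log2 change 0.17, adjusted p = 0.206 in limma). Rps18 had 3889.2 and 4090.4 against 4333.2 and 4651.5, with an interval of -0.33 to -0.01 on the log2 scale.

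Among the large subunit proteins, 12 of 17 were tested. Of these, 1 was called lower, 0 higher and 11 neither, beside 3.86% lower and 4.07% higher of all tested probe sets. Rpl41, the short basic peptide of the large subunit, had 7775.0 and 7995.6 in transgenic ventricle, against 10291.5 and 9967.3 in non-transgenic ventricle. The groups were clearly apart, and the fall was 0.36 ± 0.05 (SE) on the log2 scale, or 1.28-fold (adjusted p = 0.0123 in limma). The change was -0.11 after quantile normalization (adjusted p = 0.237) and -0.19 after cyclic loess normalization (adjusted p = 0.0769), and the call ended in both. Rpl41 also has a probe set ID of the kind that can bind a gene family.

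Rpl22, an RNA-binding protein of the large subunit, and Rpl13a, known in human cells also for silencing inflammatory mRNAs outside the ribosome, had the largest positive changes of the subunit. Rpl22 gave 290.6 and 254.6 in transgenic, against 188.1 and 204.2 in non-transgenic ventricle, a log2 change of 0.46 ± 0.14 (SE; adjusted p = 0.0971 in limma). Its second, dim probe set, below the filter, went the other way, with 23.4 and 15.2 against 53.7 and 35.7. Rpl13a gave 197.3 and 183.6, against 145.7 and 137.3 (log2 change 0.41 ± 0.14, adjusted p = 0.134 in limma). Neither gene passed the test. In both the transgenic arrays were the higher ones without overlap, as they were for 27.8% of all tested probe sets.

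Rplp0, which anchors the stalk that recruits elongation factors, had 5694.6 and 5048.0 in transgenic ventricle, against 5940.2 and 6005.4 in non-transgenic ventricle (log2 change -0.16, 95% interval -0.33 to 0.02). Rpl6, Rpl19 and Rpl10a had changes of 0.01, 0.04 and 0.04, and Rpl7, Rpl7a and Rpl8 of -0.11, -0.12 and -0.11. Of these, the probe set of Rpl7 lists the same source sequence as that of Rps24, and that of Rpl7a the same as probe sets of Surf1 and Surf2, so which gene they measure is less certain. Rpl37a differed more between the transgenic arrays (960.2 and 1744.4) than between the groups (1337.5 and 1333.3 in non-transgenic ventricle). The 10 ribosomal proteins below the filter were Rps13, Rps14, Rps15, Rps20, Rps27l, Rpl32, Rpl35a, Rpl38, Rpl39 and Rpl39l, with signals from 1.9 (Rps15) to 41.9 (Rpl32). No level of these mRNAs can be read from such signals.

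Many ribosomal protein mRNAs begin with a C and a run of pyrimidines, the 5′ terminal oligopyrimidine tract through which growth signalling controls their translation. A stretch of at least 5 pyrimidines counted from a C that lies from 5 bases before to 10 bases after the annotated gene start was present in 11 of 26 promoter windows of tested ribosomal proteins (42.3%), in 8 of 37 of tested factors (21.6%) and in 24.3% of all 32851 windows (RefSeq, GRCm38.p6; 20 of the 24 ribosomal protein genes and 32 of the 39 factors had a window). The starts of 4 ribosomal protein genes with such a run are given as examples, from 10 bases before the start. They are those whose changes had the narrowest intervals. A run counted in this way need not be a tract that begins the mRNA. In Rpl19 the run begins 5 bases before the annotated start and ends ahead of it, and in Rps7 it begins 7 bases after. Capitals mark the run from its first C within those limits, and in Rpl7a further pyrimidines precede it. They lie at chr17:33955646-33955675 on the minus strand, chr12:28635934-28635963 on the minus strand, chr2:26910797-26910826 on the plus strand and chr11:98026700-98026729 on the plus strand. Their log2 changes were -0.17, 0.08, -0.12 and 0.04.
Rps18: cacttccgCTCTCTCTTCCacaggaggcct
Rps7: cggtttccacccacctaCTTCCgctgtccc
Rpl7a: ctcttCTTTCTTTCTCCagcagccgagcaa
Rpl19: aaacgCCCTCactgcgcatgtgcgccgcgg

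**Figure D2:**
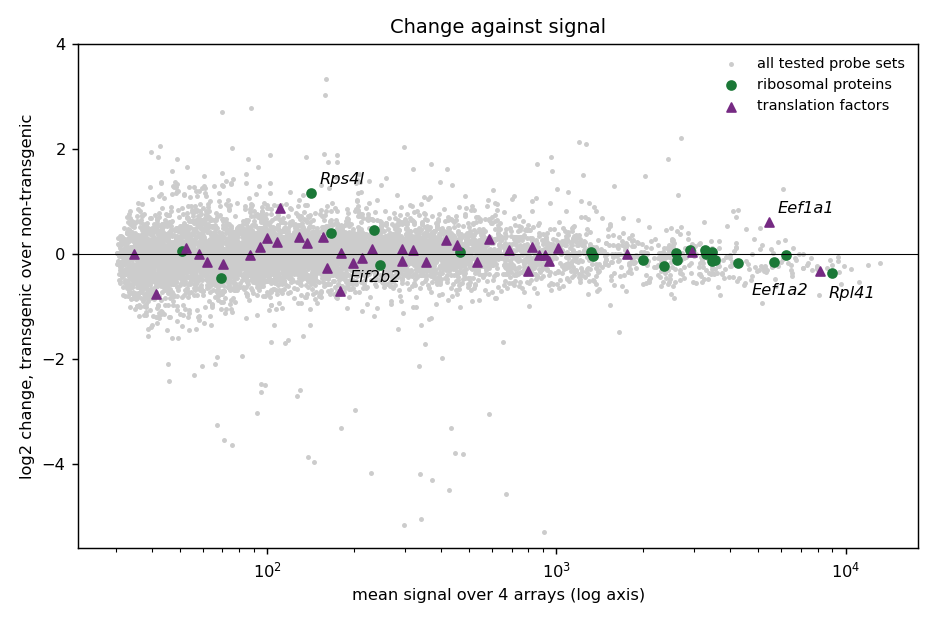
Log2 change in transgenic over non-transgenic ventricle (vertical axis) against the mean signal over 4 arrays (horizontal log axis) for all 7453 tested probe sets (grey), the 24 ribosomal proteins (circles) and the 39 factors (triangles). Most circles lie at high signal near a change of 0, and Eef1a1 (0.60) stands above the other bright members.

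Of 32 initiation factors 29 were tested. Of these, 1 was called lower, 0 higher and 28 neither, beside 3.86% lower and 4.07% higher of all tested probe sets. Eif2b2, the beta subunit of the eIF2B complex that recharges eIF2 with GTP, had 131.4 and 137.2 in transgenic ventricle, against 245.1 and 203.0 in non-transgenic ventricle. The transgenic arrays were close to each other and well below both non-transgenic arrays. The fall was 0.70 ± 0.15 (SE) on the log2 scale, or 1.62-fold (adjusted p = 0.0383 in limma). With single arrays removed it passed only without non-transgenic replicate 2 (limma adjusted p = 0.0463). The adjusted p was 0.125 without transgenic replicate 1, 0.0846 without transgenic replicate 2, 0.117 without non-transgenic replicate 1 and 0.0508 after median centring. The other eIF2B subunits measured did not pass: Eif2b1 had a log2 change of 0.23, Eif2b4 of -0.16 and Eif2b5, the catalytic subunit, of 0.07. Eif2s2, the beta subunit of eIF2, was dim and had a change of 0.00, with an interval of -0.66 to 0.66.

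The eIF3 complex, the scaffold that holds the small subunit ready for mRNA, was measured through 10 subunits, and none passed the test in limma. An unadjusted p below 0.05 was reached by 1 of the 10 (Eif3f), beside 24.2% of all tested probe sets. The median log2 change of the 10 subunits was 0.10. Of their intervals 7 lay within 1.5-fold, against 38.0% of all tested probe sets. Eif3c, a core subunit, had 1031.3 and 1087.5 in transgenic, against 975.7 and 966.1 in non-transgenic ventricle (log2 change 0.12, 95% interval -0.08 to 0.33). Eif3f was the exception in size, with 28.7 and 28.0 against 50 and 58.8, a log2 change of -0.76 ± 0.23 (SE; adjusted p = 0.105 in limma). Its transgenic arrays were both lower, at signals close to the filter.

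The eIF4 family recognises the cap and unwinds the mRNA. Eif4b, the cofactor of the eIF4A helicase, had 634.2 and 650.1 in transgenic ventricle, against 543.3 and 503.9 in non-transgenic ventricle (log2 change 0.29, adjusted p = 0.135 in limma), and its second tested probe set gave 0.43 (adjusted p = 0.160). Eif4a1 and Eif4a2, near-identical helicases, had changes of 0.32 and 0.00, with 95% intervals of -0.05 to 0.69 and -0.20 to 0.20, which overlap. The scaffold Eif4g3 had 156.3 and 132.5 against 115.9 and 110.9 (log2 change 0.32, adjusted p = 0.267 in limma), and Eif4g2, a relative that works without the cap-binding protein, -0.08. Neither Eif4e, the cap-binding protein itself, nor Eif4h passed the filter.

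Of 7 genes named as elongation factors 6 were tested. Of these, 1 was called higher, 0 lower and 5 neither, beside 4.07% higher and 3.86% lower of all tested probe sets. Eef1a1, the ubiquitous GTPase that delivers aminoacyl-tRNA to the ribosome, had 6601.4 and 6493.0 in transgenic ventricle, against 4530.3 and 4100.4 in non-transgenic ventricle. Both transgenic arrays lay far above both non-transgenic arrays. The rise was 0.60 ± 0.07 (SE) on the log2 scale, or 1.52-fold, with an adjusted p of 0.00473 in limma, the smallest of all tested members. Removing any single array kept the call, with log2 changes of 0.53 to 0.67 and limma adjusted p values of 0.00651 to 0.0153.

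Eef1a2, the form of adult muscle and neurons, went the other way. It had 6690.9 and 7788.9 in transgenic ventricle, against 9207.9 and 8955.6 in non-transgenic ventricle, without overlap. The log2 change was -0.33 ± 0.08 (SE), with an adjusted p of 0.0513 in limma, just outside the threshold. Without transgenic replicate 2 it passed (log2 change -0.44, adjusted p = 0.0166), and after quantile normalization it was -0.11 (adjusted p = 0.453), so its size depended on the scaling. The ratio of Eef1a1 to Eef1a2 signal, each read by its own probes, was 0.987 and 0.834 on transgenic arrays, against 0.492 and 0.458 on non-transgenic arrays. The 95% intervals of the changes of Eef1a1 (0.44 to 0.77) and Eef1a2 (-0.52 to -0.14) did not overlap. Summed fibroblast and macrophage markers were higher and summed cardiomyocyte markers lower in the same transgenic samples, as given above. The part of these shifts in the values of Eef1a1 and Eef1a2 was not tested.

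The promoter windows of both elongation factor genes are shown because their RNA moved apart, and those of the called members Rpl41 and Eif2b2 beside them. Each is 300 bases, from 250 before to 50 after the annotated start (RefSeq, GRCm38.p6), at chr9:78481675-78481974 on the minus strand, chr2:181156966-181157265 on the minus strand, chr10:128549119-128549418 on the minus strand and chr12:85219231-85219530 on the plus strand. Capitals mark matches to the GC box GGGCGG on either strand. There were 2 in Eef1a1, 1 in Eef1a2, 1 in Rpl41 and 3 in Eif2b2, and 35.7% of all windows hold at least 1.
Eef1a1: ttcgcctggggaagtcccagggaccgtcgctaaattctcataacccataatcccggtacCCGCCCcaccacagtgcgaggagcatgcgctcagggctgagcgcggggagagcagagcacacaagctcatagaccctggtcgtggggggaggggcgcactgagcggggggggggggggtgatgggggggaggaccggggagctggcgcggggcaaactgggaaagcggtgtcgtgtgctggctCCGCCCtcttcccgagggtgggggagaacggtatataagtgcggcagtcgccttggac
Eef1a2: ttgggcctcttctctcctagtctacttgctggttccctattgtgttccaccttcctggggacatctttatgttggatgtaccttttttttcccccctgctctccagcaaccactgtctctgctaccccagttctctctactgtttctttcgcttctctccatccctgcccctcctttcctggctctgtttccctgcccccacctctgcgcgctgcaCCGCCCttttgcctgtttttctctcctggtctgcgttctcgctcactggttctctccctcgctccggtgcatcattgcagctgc
Rpl41: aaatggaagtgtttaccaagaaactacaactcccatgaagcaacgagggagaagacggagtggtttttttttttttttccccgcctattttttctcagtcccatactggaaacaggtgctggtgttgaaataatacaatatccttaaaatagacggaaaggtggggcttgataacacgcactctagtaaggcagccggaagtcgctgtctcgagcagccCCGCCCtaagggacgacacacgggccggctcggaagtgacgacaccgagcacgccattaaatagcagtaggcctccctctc
Eif2b2: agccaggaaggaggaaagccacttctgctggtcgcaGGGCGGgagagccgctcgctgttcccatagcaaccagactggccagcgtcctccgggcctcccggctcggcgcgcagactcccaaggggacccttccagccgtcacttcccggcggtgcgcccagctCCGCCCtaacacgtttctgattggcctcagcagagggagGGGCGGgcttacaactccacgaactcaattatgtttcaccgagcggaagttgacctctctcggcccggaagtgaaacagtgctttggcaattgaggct

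A CArG box, the sequence SRF binds, was found in 0 of these 4 windows, on either strand. Rps4l, the remaining called member, had no window and was not searched. Among tested members a CArG box was found in 1 of 26 windows of ribosomal proteins, that of Rpl10a. In factors it was found in 0 of 37 windows, and 1.63% of all windows held a match. The signal of Rpl10a was 1460.8 and 1222.5 in transgenic ventricle, against 1306.6 and 1296.4 in non-transgenic ventricle, with overlap. A TATA box (TATAAA on either strand) was in 3 of 26 and 3 of 37 windows, against 13.6% of all windows, and in 0 of the 4 shown. The ETS site CCGGAAG, on either strand, was in 7 of 26 windows of ribosomal proteins (26.9%) and 14 of 37 of factors (37.8%), against 8.86% of all windows. These are matches of letters in a fixed window and say nothing of binding.

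Eef1d, a subunit of the exchange factor that reloads elongation factor 1 alpha with GTP, had 714.9 and 698.9 in transgenic ventricle, against 845.3 and 921.8 in non-transgenic ventricle. Its transgenic arrays were both lower, at a log2 change of -0.32 ± 0.10 (SE; adjusted p = 0.0989 in limma). Another subunit, Eef1b2, had 48.9 and 53.4 in transgenic, against 24.5 and 82.8 in non-transgenic ventricle, so the non-transgenic arrays enclosed the transgenic ones. Eef1g was below the filter. Eef2, which moves the ribosome along the mRNA, had 2728.2 and 3226.7 against 2979.5 and 2802.1, with overlap and a 95% interval of -0.19 to 0.26 on the log2 scale. Eef1akmt1, whose product methylates elongation factor 1 alpha, had a change of 0.02.

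**Figure D3:**
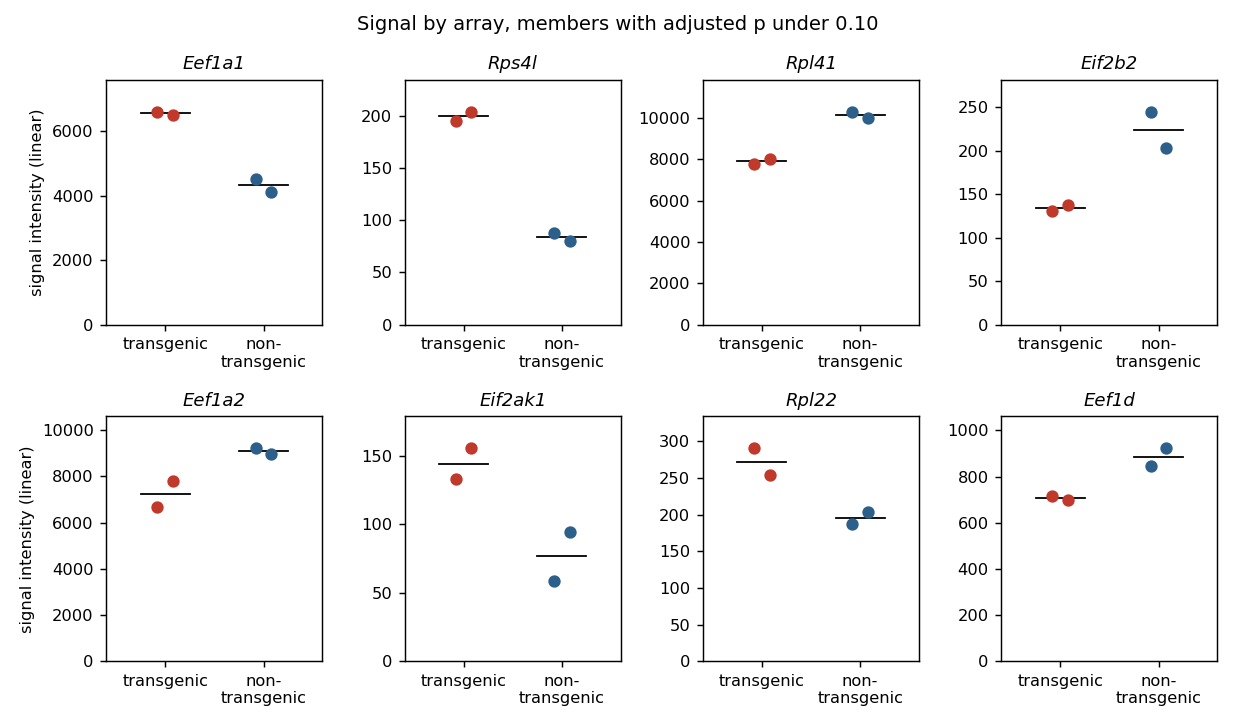
Signal intensity on a linear scale (vertical axis, from 0) of the 8 members with an adjusted p under 0.10, with transgenic arrays on the left and non-transgenic arrays on the right of each panel. Points are single arrays and bars are group means of 2 arrays. The groups are apart in every panel, which follows from picking the members by adjusted p in this same comparison. Eef1a1, Rps4l, Eif2ak1 and Rpl22 are higher and Rpl41, Eif2b2, Eef1a2 and Eef1d lower in transgenic ventricle.

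Of 8 kinases and inhibitors 4 were tested, and none passed in limma, beside 7.93% of all tested probe sets. An unadjusted p below 0.05 was reached by 1 of the 4, beside 24.2% of all tested probe sets. Eif2ak1, the haem-regulated kinase that switches off eIF2, had 133.4 and 155.5 in transgenic ventricle, against 58.9 and 94.5 in non-transgenic ventricle. The groups did not overlap, but the non-transgenic arrays differed widely, and the log2 change of 0.87 ± 0.23 (SE) had an adjusted p of 0.0721 in limma. It ran from 0.56 without non-transgenic replicate 1 to 1.17 without non-transgenic replicate 2, and passed in the second (adjusted p = 0.0297). The other eIF2 kinases, Eif2ak2, Eif2ak3 and Eif2ak4, were below the filter.

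Eif4ebp1, which holds back the cap-binding protein until mTOR phosphorylates it, had 456.5 and 447.9 in transgenic, against 401.3 and 350.3 in non-transgenic ventricle (log2 change 0.26, adjusted p = 0.224 in limma). Eif4ebp2 had 868.2 and 930.6 against 1025.2 and 945.8 (log2 change -0.13, adjusted p = 0.448 in limma), while its second probe set gave -0.56 (adjusted p = 0.145). Eef2k, the kinase that inhibits Eef2, varied more between the transgenic arrays (81.3 and 38.4) than between groups (64.0 and 64.3 in non-transgenic ventricle).

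The other genes of protein synthesis are given as lists beside the members. Of 58 tested mitochondrial ribosomal proteins, which serve the separate ribosome of mitochondria, 3 were called lower, 0 higher and 55 in neither direction, beside 3.86% called lower of all tested probe sets. Changes were negative in 47 of the 58, against 3824 of 7453 tested probe sets. The median was -0.18 over the 58, against -0.01 over all tested probe sets. Mrps21 had 824.6 and 789.1 in transgenic ventricle, against 1252.7 and 1152.7 in non-transgenic ventricle, a fall of 0.57 ± 0.09 (SE) on the log2 scale (adjusted p = 0.0150 in limma). Mrps25 and Mrpl23 fell by 0.57 and 0.42. With single arrays removed, Mrpl23 lost its call each time (limma adjusted p at most 0.143), Mrps25 each time but without non-transgenic replicate 1 (at most 0.124), and Mrps21 when non-transgenic replicate 1 was removed (0.0514). An unadjusted p below 0.05 was reached by 17 of the 58, beside 24.2% of all tested probe sets.

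Of 21 cytosolic aminoacyl-tRNA synthetase genes, which charge tRNAs with amino acids, and their scaffold genes, 1 was called higher, 0 lower and 20 in neither direction. Of all tested probe sets 4.07% were called higher and 3.86% lower. Changes were positive in 16 of the 21, against 3629 of 7453 tested probe sets. The median was 0.29, against -0.01 over all tested probe sets. Vars, the valyl-tRNA synthetase, had 234.6 and 235.4 in transgenic ventricle, against 142.7 and 142.2 in non-transgenic ventricle, a rise of 0.69 ± 0.13 (SE) on the log2 scale (adjusted p = 0.0254 in limma). Vars lost its call whichever array was removed, at a change of 0.69 each time (limma adjusted p of 0.0611 to 0.102).

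Among 42 tested ribosome biogenesis genes 1 was called higher and 41 were not called, beside 4.07% called higher of all tested probe sets. The median change of these genes was 0.11, against -0.01 over all tested probe sets. Nhp2, a protein of the small nucleolar particles that modify ribosomal RNA, had 312.2 and 293.4 in transgenic, against 180.0 and 159.0 in non-transgenic ventricle, a rise of 0.81 ± 0.13 (SE) on the log2 scale (adjusted p = 0.0167 in limma, and 0.0681 without transgenic replicate 1, where the call ended). Of all tested probe sets 3.86% were called lower. Of 17 tested genes that signal growth to the ribosome, 1 fell and 16 did not pass. That was Sesn1, an inhibitor of mTOR complex 1, with 432.3 and 363.6 against 601.2 and 600.4 (adjusted p = 0.0313 in limma, and up to 0.110 in the 3 fits without an array where the call ended, all but that without transgenic replicate 1). Of 9 other tested genes with pyrimidine tracts or bound to the ribosome, Npm1 is also among the biogenesis genes. None of the 9 passed in limma, and 3 had an unadjusted p below 0.05, beside 24.2% of all tested probe sets.

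**Figure D4:**
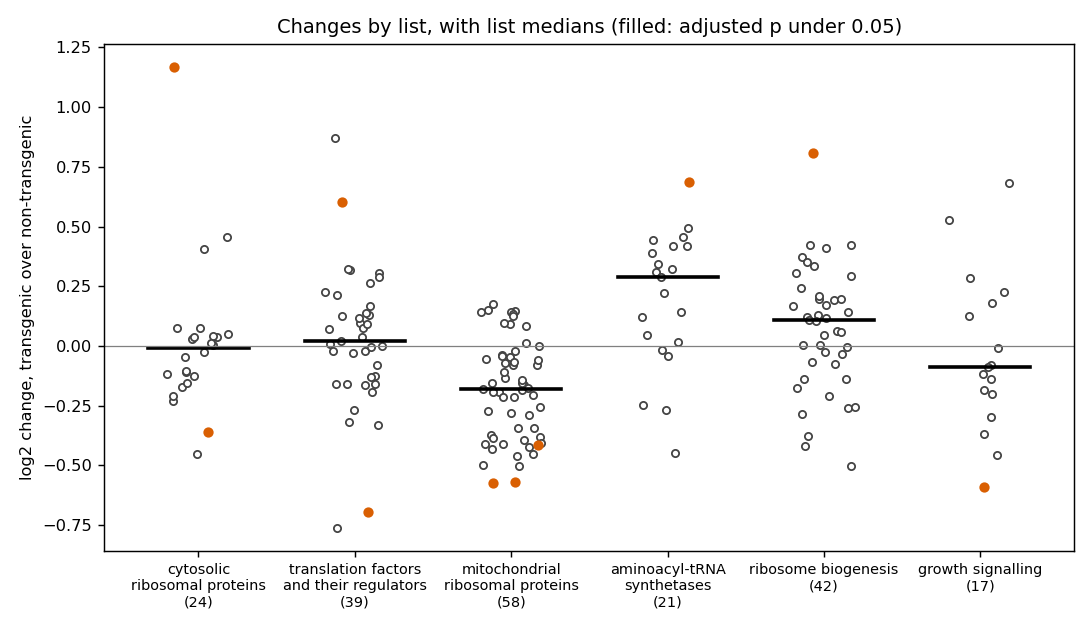
Log2 change in transgenic over non-transgenic ventricle (vertical axis) for each tested gene of 6 lists, with the number of genes in brackets; bars are list medians and filled points had an adjusted p under 0.05. Cytosolic ribosomal proteins gather near 0 (median -0.01), with mitochondrial ribosomal proteins mostly below 0 (median -0.18) and aminoacyl-tRNA synthetases mostly above it (median 0.29).

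The calls of single members differed in how far they depended on the settings. Of 14 alternative fits, Rps4l passed in 13, Eef1a1 in 12, Rpl41 in 9, Eif2b2 in 7 and Eef1a2 in 4. The direction of each of these 5 members was the same in all 14. The ordinary two-sample test, with 2 residual degrees of freedom, called 0 members (12 had an unadjusted p below 0.05), and limma without a variance trend called Rps4l alone (Eef1a1 adjusted p = 0.102).

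**Figure D5:**
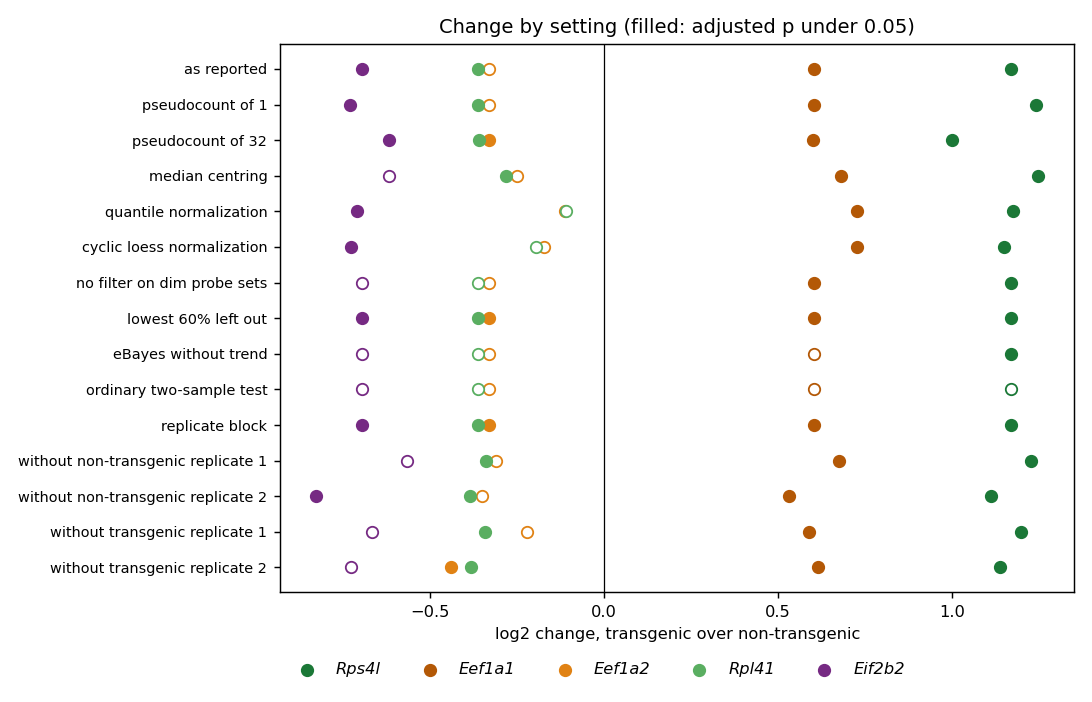
Log2 change in transgenic over non-transgenic ventricle (horizontal axis) of 5 members under the reported setting and 14 alternatives (rows); filled points had an adjusted p under 0.05. Rps4l and Eef1a1 stay to the right of 0, and Rpl41 and Eef1a2 move towards 0, to -0.11 each, under quantile normalization.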

How the data were processed

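Signal intensities were deposited by the authors as 1 linear value per probe set and array, for 12488 probe sets on 4 arrays. The method of summary and scaling is not given in the sources used here. The mean without the top and bottom 2% was 150.1 on every array, and a shift common to most transcripts would be hidden. Biotin labelling followed the Affymetrix procedure, per the labels. No detection calls came with the values used here, and read depths do not apply to arrays. The number of arrays limits precision.

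The 66 control probe sets were left out. The titles of both groups share replicate numbers, and same-numbered arrays did not deviate together (correlation -0.06), so they were not paired. Genes were named through the platform annotation (10833 probe sets with 1 symbol, 396 with several, 1193 not listed), and all 81 member gene numbers were found in RefSeq with 0 symbols changed. Values were used as log2(value + 9), 9 being the rounded 20th percentile, which understates changes of dim genes. Groups were fitted with lmFit and eBayes (variance trend, prior of 5.05 degrees of freedom) in limma 3.58.1 under R 4.3.3. Tests were two-sided, p-values were adjusted by Benjamini-Hochberg, and the procedure was tested on simulated data. Genes named by rule were the members past the threshold, the 4 largest changes of each role, set pairs of paralogs, and up to 4 called genes of each comparison list. Other members named were chosen after their values were seen. Members and lists were chosen with earlier results of these data known. Alternatives were other pseudocounts, scalings, filters, variance models, a looser threshold, a replicate block, other probe set choices and leaving out each array.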

Additional observations from a re-analysis of the deposited data

Results flagged for a closer look

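Groups of 2 arrays are too small to look for outlying samples. Among probe sets that the choice of members left out, 40 list several symbols of which at least 1 is a ribosomal protein or factor name, and 33 of these were tested. A probe set listed under Rpl3, Gm5879 and Gm12816 passed the test, so its signal cannot be given to 1 gene. It had 1595.0 and 1535.8 in transgenic ventricle, against 930.4 and 980.8 in non-transgenic ventricle, or 0.71 ± 0.08 (SE) higher on the log2 scale (limma adjusted p = 0.00528). A probe set listed under Rps2, Gm10420 and Gm6139 passed in the other direction, with 4780.2 and 4522.8 against 5561.1 and 6045.6, with a log2 difference of -0.32 ± 0.07 (SE; limma adjusted p = 0.0384). Both were marked for a closer look because they carry a difference in data that the members do not use. The remaining 31 tested probe sets of this kind did not pass.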

How the results depend on the processing

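The number of arrays, 2 a group, limits every result. No result changed sign as a call under the alternatives run. Members called higher and lower, 2 and 2 as reported, were 2 and 1 under median centring, quantile and cyclic loess normalization, 2 and 0 with no filter on dim probe sets, 1 and 0 without the variance trend, and 0 and 0 in the ordinary two-sample test. They were 4 and 4 at a threshold of 0.10, 1 and 1 with probe sets that carry no cross-hybridisation suffix, and 0 and 0 of 10 with the second brightest probe sets. Over all probe sets, 303 higher and 288 lower as reported became 172 and 157 with no filter, 44 and 34 without the trend, 0 and 0 in the ordinary test (1175 at an unadjusted p below 0.05), 477 and 484 at 0.10, and 397 and 197 under median centring, which moved the median of all tested probe sets to 0.07. The median log2 change of ribosomal proteins was 0.0701, 0.0193 and 0.0379, and that of factors 0.103, 0.0604 and 0.0520, under median centring, quantile and cyclic loess normalization in that order. The factors' median was -0.00257 with no filter, 0.0726 with the lowest 60% left out, 0.00868 without suffixed probe sets and -0.0529 with the second brightest. Leaving out each array gave 2 to 3 members higher and 1 to 2 lower, 125 to 232 probe sets higher and 158 to 191 lower, a ribosomal protein median of -0.0457 to 0.0366 and a factor median of -0.00603 to 0.0442. With the replicate number as a block, 3 members were higher and 3 lower, adding Eif2ak1 (adjusted p = 0.0280 in limma) and Eef1a2 (0.0299), with 348 and 345 over all probe sets, but the arrays share only a number. With probe sets of several symbols as members, an alternative chosen after seeing the data, 3 were higher and 3 lower. The cause of these differences was not tested.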
